A study of Caenorhabditis elegans with 10 samples.

Results

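Caenopores are small saposin-like proteins of Caenorhabditis elegans that insert into bacterial membranes and open pores in them. The genes described here are spp-1, spp-2, spp-3, spp-5, spp-8, spp-9, spp-12 and spp-14, each taken by the brightest probe set annotated to that gene alone. Of these 8 listed genes, 4 (spp-1, spp-8, spp-12 and spp-14) had such a probe set, out of 17118 genes with one on the array. The other 4 were found only on probe sets annotated to a pair of genes, and those 3 probe sets are given apart because their signal cannot be assigned to either gene. Levels of all of them were read on 10 Affymetrix arrays of RNA from whole worms, most of them L4 larvae, with 200 to 500 animals pooled per array. N2, the laboratory wild type, was fed a control RNAi plasmid (3 arrays). Mutants labelled wdr-23(tm1718) were fed the control plasmid (4 arrays) or a skn-1 RNAi plasmid (3 arrays). The series text gives the same allele as tm1817. All animals fed on HT115 bacteria that make double-stranded RNA, on agar plates that held carbenicillin (50 ug/ml) and lactose (0.2%). The arrays are labelled biological replicates. No N2 animals on skn-1 RNAi were measured, so the effect of skn-1 RNAi in the wild type is not known here.

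The saposin fold is a compact bundle of helices held together by disulfide bonds, and it is shared by amoebapores of amoebae and by saposins, which help lysosomal enzymes reach lipids. In the worm, caenopores are best known from the intestine, where they act on swallowed bacteria as digestive and defence proteins. WDR-23 is a WD-repeat adaptor of a cullin ubiquitin ligase that marks SKN-1 for removal. SKN-1, the worm relative of the Nrf factors, switches on detoxification genes, and it accumulates when WDR-23 is lost. The comparisons ask how the caenopore genes differ between the wdr-23 mutant and N2, and how far that difference depends on skn-1.

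The signal of single probe sets lay between 0.0533 and 25046, the median of an array lay between 113 and 139.9, and no pair of arrays was identical. In mutants the skn-1 signal was 474 ± 70.1 (SD, n = 4) on control RNAi and 257 ± 28 (SD, n = 3) on skn-1 RNAi. Its log2 change of -0.83 passed the test (SE 0.14, limma adjusted p = 0.000708). The wdr-23 probe set was higher in the mutant on control RNAi (3259 ± 452.5, SD, n = 4) than in N2 (865 ± 151.5, SD, n = 3) or on skn-1 RNAi (902 ± 18.6, SD, n = 3), and where its probes lie relative to the deletion is not given, so it does not check the genotype. Of 15783 tested probe sets, 2754 were called higher and 1590 lower in the mutant than in N2, 27.5% in all. The split depended on the scaling of the arrays. Centring each array on its median moved the median log2 change by -0.2 and gave 1671 higher and 4613 lower, and quantile normalization gave 1944 and 1963. Between skn-1 RNAi and control RNAi, 22.5% were called, 1577 higher and 1981 lower, against 3463 and 1308 with median centring, which moved the median by 0.15. The mutant control arrays enter both of these comparisons, so their changes are not independent of each other.

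All 4 caenopore genes with their own probe set passed the filter on low signals in every group, and they did not move as a block. Between mutant and N2, spp-12 and spp-8 rose, spp-1 fell and spp-14 did not pass the test, where 17.4% of all tested probe sets rose and 10.1% fell. With skn-1 RNAi in the mutant, spp-12, spp-8 and spp-14 fell and spp-1 rose, where 12.6% fell and 9.99% rose. Between the mutant on skn-1 RNAi and N2, 1 of the 4, spp-12, was higher, where 6.34% of probe sets were called (3.88% higher and 2.46% lower). The arrays of the groups compared did not overlap for 3, 4 and 1 of the 4 genes in these comparisons, against 33.9%, 32.4% and 26.2% of all tested probe sets. With 4 genes, such counts describe these genes and do not set them apart from the rest. The median log2 change of the 4 genes was 0.66, -0.84 and 0.04 in these comparisons, beside 0.03, -0.02 and 0.03 over all 12061 tested genes. With median centring the medians of the 4 genes were 0.46, -0.69 and -0.01.

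**Figure D1:**
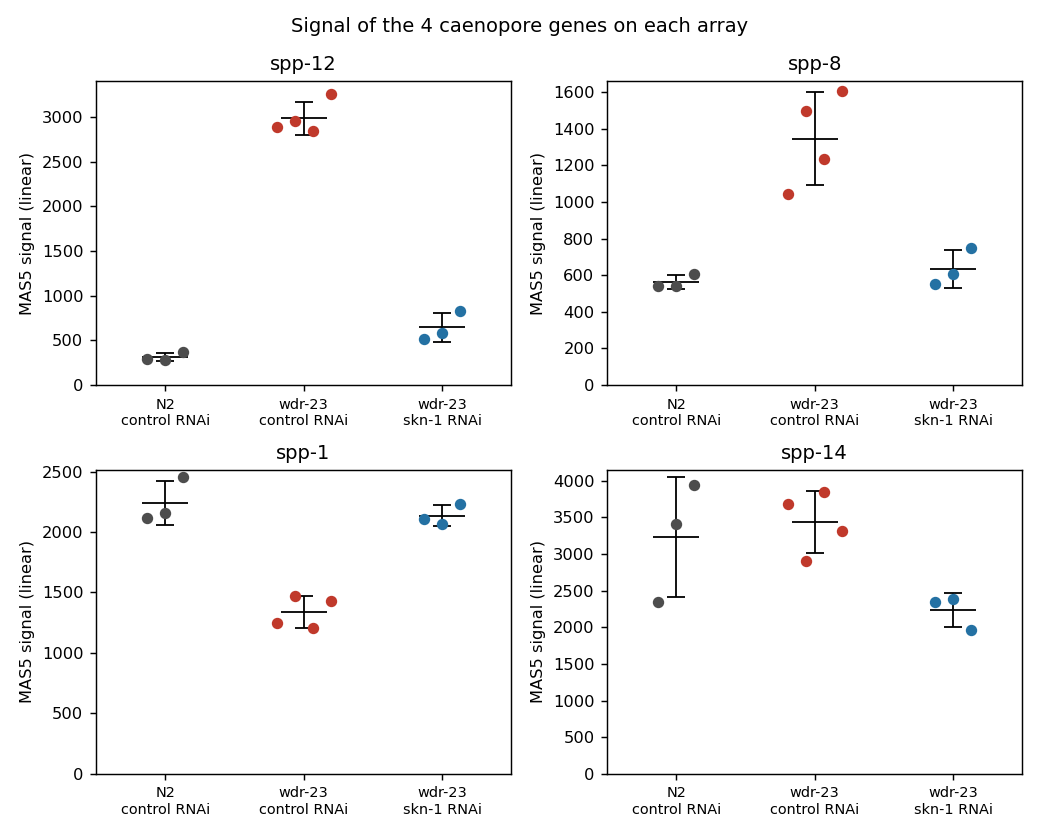
Linear MAS5 signal of spp-12, spp-8, spp-1 and spp-14 on each of the 10 arrays, by group. Points are arrays, ordered by replicate number within a group, wide bars are group means and whiskers are 1 SD. The mutant control arrays of spp-12 lie at 2846 to 3254 against 276 to 367 in N2, and those of spp-1 lie below both other groups.

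SPP-12 is an antibacterial caenopore described from a pair of pharyngeal neurons rather than from the intestine. Its signals were 293, 276 and 367 on the N2 arrays. They were 2890, 2957, 2846 and 3254 on the mutant control arrays and 520, 585 and 829 with skn-1 RNAi. The 3 groups did not overlap, with the mutant on control RNAi highest, the mutant on skn-1 RNAi between, and N2 lowest. The rise in the mutant was 9.13-fold on the scale of signal plus 19, a log2 change of 3.19 (SE 0.15, limma adjusted p = 4.7e-11), and it ranked 50 from the top of 12061 tested genes. With skn-1 RNAi the signal fell by 2.21 on the log2 scale (4.61-fold, SE 0.15, adjusted p = 1.12e-08), at place 59 from the bottom. It did not return to the N2 level. In mutants on skn-1 RNAi the mean was 645 ± 163 (SD, n = 3) against 312 ± 48.5 (SD, n = 3) in N2. That is 1.98-fold above N2, or 0.99 on the log2 scale (SE 0.16, adjusted p = 0.000903). That remaining difference ranked 113 from the top. Each of these calls held without any single array and under every other setting tried.

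The genes whose profiles over the 10 arrays lay nearest to that of spp-12 were gst-6, a glutathione S-transferase gene, and alh-5, an aldehyde dehydrogenase gene. After each gene was centred on its own mean, gst-6 differed from spp-12 by a root mean square of 0.21 on the log2 scale and alh-5 by 0.25. Within the 4 caenopore genes the nearest profile to spp-12 was that of spp-8, at 0.84. The group differences carry most of these distances, since the arrays fall into 3 groups.

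The product of spp-8 is known here only by its saposin-like family name, and the gene lies beside hlh-12, whose other neighbour in the reference gene order is the saposin-like gene spp-10. Its signals were 543, 542 and 606 in N2. In the mutant on control RNAi they were 1042, 1499.5, 1235 and 1607, and with skn-1 RNAi 549.5, 604 and 748. All 4 mutant control arrays exceeded the other 6, and the N2 and skn-1 RNAi arrays overlapped. The rise was 2.31-fold, a log2 change of 1.21 (SE 0.15, limma adjusted p = 1.54e-05), and the fall with skn-1 RNAi was 2.08-fold, a log2 change of -1.06 (SE 0.15, adjusted p = 9.53e-05). Between mutants on skn-1 RNAi and N2 the log2 change was 0.15 with a 95% interval of -0.18 to 0.49 and did not pass the test (adjusted p = 0.682). A second spp-8 probe set, 185774_s_at, gave 495 ± 24 in N2, 1253 ± 122 in the mutant and 497 ± 57.4 with skn-1 RNAi. Its log2 changes were 1.3 and -1.3 (adjusted p = 4.5e-07 and 6.66e-07), so both probe sets moved the same way by similar amounts. The nearest profiles to spp-8 were those of atf-8, a bZIP factor gene, at 0.12 and plc-3, a phospholipase C gene, at 0.13.

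SPP-1 is an amoebapore-like protein with activity against bacteria, and its gene is known as one that the insulin pathway factor DAF-16 controls. It went the other way. The N2 arrays gave 2115, 2159.6 and 2453.5, the mutant control arrays 1244, 1468, 1204 and 1429.6, and the skn-1 RNAi arrays 2105, 2071 and 2233. Every mutant control array lay below every array of the other groups, which overlapped each other. The fall in the mutant was 1.67-fold, a log2 change of -0.74 (SE 0.11, limma adjusted p = 9.67e-05), at place 208 from the bottom of 12061 genes. With skn-1 RNAi it was 1.59-fold higher than on control RNAi, a log2 change of 0.67 (SE 0.11, adjusted p = 0.000338), at place 216 from the top. The mutant on skn-1 RNAi and N2 differed by -0.07 with a 95% interval of -0.31 to 0.18 (adjusted p = 0.835). These values come from probe set 178149_s_at, whose suffix in the array's naming marks probes shared by several transcripts. The only other spp-1 probe set, 178179_at, read 5.61 to 20.4 on all arrays, under the filter in every group, and so gives no measure of the change. Without probe sets of that suffix, spp-1 could not be tested.

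No specific role is stated here for spp-14, which lies next to the yolk protein gene vit-1 in the reference gene order. Its N2 arrays spread widely, at 2342, 3411 and 3944. The mutant control arrays gave 3680, 2907, 3854 and 3322, inside that range, and the skn-1 RNAi arrays gave 2347, 2388 and 1964. Mutant and N2 differed by a log2 change of 0.11 with a 95% interval of -0.21 to 0.44 (limma adjusted p = 0.604), which turned to -0.1 without N2 replicate 1, the lowest N2 array, and to -0.09 with median centring. With skn-1 RNAi the signal was 1.53-fold lower than on control RNAi, a log2 change of -0.62 (SE 0.15, adjusted p = 0.00903), and the groups did not overlap. Without wdr-23 skn-1 RNAi replicate 3 this change was -0.53 and missed the threshold (adjusted p = 0.0507). Against N2, the mutant on skn-1 RNAi stood at -0.5 (SE 0.16, adjusted p = 0.0828). It passed the test without N2 replicate 1 (-0.72, adjusted p = 0.00981) and with median centring (-0.56, adjusted p = 0.0456). Of the 4 genes, spp-14 is the one whose calls turned on single arrays.

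**Figure D2:**
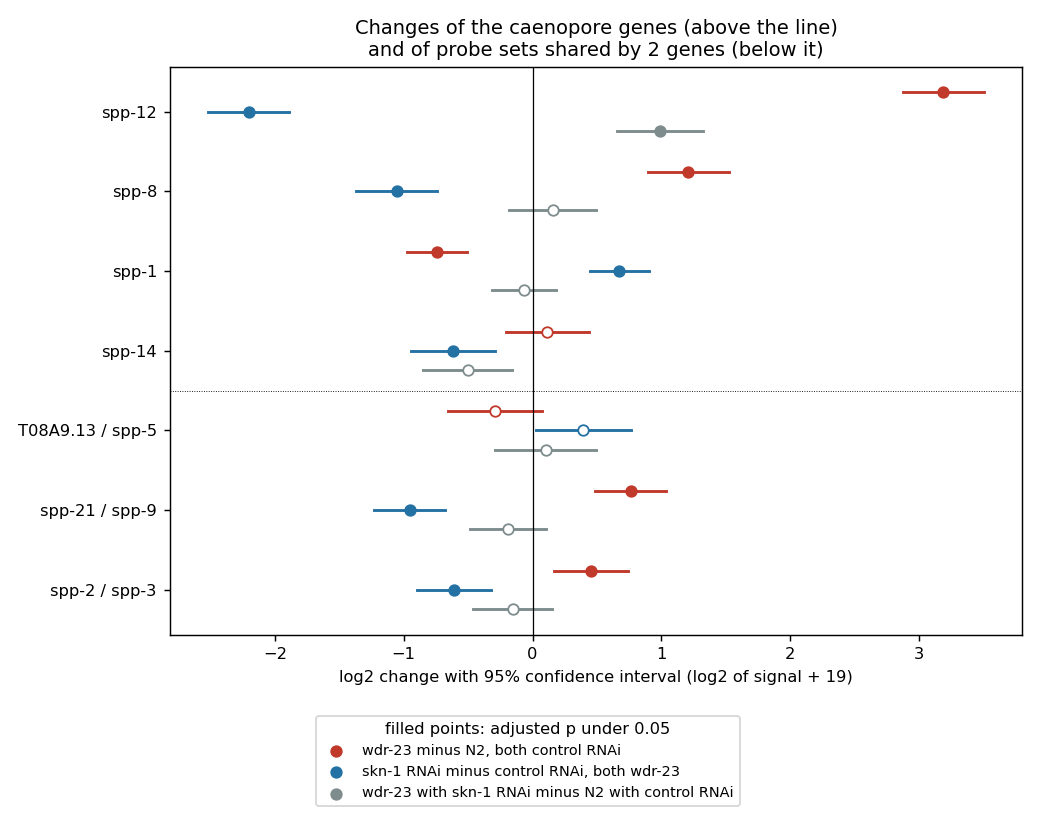
Log2 changes with 95% confidence intervals (horizontal axis, log2 of signal + 19) for the 4 caenopore genes and, below the dotted line, for 3 probe sets annotated to a pair of genes each, in the 3 comparisons. Filled points passed the test at an adjusted p under 0.05. For spp-12 all 3 comparisons are filled, and for spp-8 and spp-1 the comparison of the mutant on skn-1 RNAi with N2 lies across 0.

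The other 4 listed genes share probe sets. The probe set annotated to spp-2 and spp-3, which are neighbours on the X chromosome, gave 3285, 3059 and 3224 in N2. On the mutant control arrays it gave 4126, 3971, 6054 and 3708, and with skn-1 RNAi 2739, 3004 and 2846. The 3 groups did not overlap, although replicate 3 of the mutant on control RNAi stood well above the rest. The log2 change was 0.46 in the mutant (SE 0.14, limma adjusted p = 0.0205) and -0.61 with skn-1 RNAi (SE 0.14, adjusted p = 0.00457). The rise was lost without N2 replicate 1 (0.48, adjusted p = 0.0503) or 2 (0.43, adjusted p = 0.0676) and with median centring (0.26, adjusted p = 0.157). The mutant on skn-1 RNAi differed from N2 by -0.16 (adjusted p = 0.641).

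The probe set annotated to spp-9 and its neighbour spp-21 also rose. A spp-9 reporter is known to go up when signalling by the BMP-like ligand DBL-1 is lost. The N2 arrays gave 326, 279.8 and 278, the mutant control arrays 536, 504, 493 and 514, and the skn-1 RNAi arrays 239.5, 224.5 and 308. The 4 arrays of the mutant on control RNAi were the highest, and the other 6 overlapped. The log2 change was 0.76 in the mutant (SE 0.13, limma adjusted p = 0.000423) and -0.95 with skn-1 RNAi (SE 0.13, adjusted p = 6.58e-05), and -0.19 between the mutant on skn-1 RNAi and N2 (adjusted p = 0.517).

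SPP-5 is a caenopore of the intestine that makes bacterial membranes leaky, and its probe set is also annotated to the neighbouring gene T08A9.13. It gave 7586, 11192 and 7991 in N2, 8111, 5114, 9630 and 6642 in the mutant on control RNAi, and 8834, 9148 and 10399 with skn-1 RNAi. All groups overlapped, and no comparison passed the test, with log2 changes of -0.29, 0.39 and 0.1 (limma adjusted p = 0.223, 0.113 and 0.843). The second was called without wdr-23 control RNAi replicate 3 (0.54, adjusted p = 0.0304). With median centring the first was -0.49 (adjusted p = 0.0294) and the second 0.54 (adjusted p = 0.0239).

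Beyond the listed genes, 14 other saposin-like genes had their own probe set, and 11 of them were bright enough to test. The genes spp-6, spp-11 and spp-19 were not. Between mutant and N2, 4 of the 11 rose (spp-27, spp-13, spp-7 and spp-10) and 2 fell (spp-4 and spp-23), with a median log2 change of 0.25. Of these, spp-27 entered the test only through the mutant control arrays, so its calls are no support for a change. Over all tested genes 18.9% rose and 10.2% fell. After median centring 2 of the 11 rose and 2 fell, with a median of 0.05. That scaling called 1671 of all 15783 tested probe sets higher and 4613 lower. With skn-1 RNAi in the mutant, spp-4 and spp-23 rose and spp-27 fell, where 9.94% of all tested genes rose and 13.1% fell. Between the mutant on skn-1 RNAi and N2, 0 of the 11 passed the limma test, and 1 had an unadjusted p under 0.05. In that comparison 4.12% of all tested genes were higher and 2.55% lower, so the count of 0 does not set these genes apart.

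The larger of the 2 falls was in spp-4. Its signals were 1122, 1328 and 1387 in N2, 294.5, 315, 333 and 246.5 in the mutant on control RNAi, and 1054, 1097.5 and 1160.3 with skn-1 RNAi. The 4 mutant control arrays lay far below the other 6. The fall was 4.11-fold, a log2 change of -2.04 (SE 0.13, limma adjusted p = 2.47e-09), and skn-1 RNAi raised it by 1.84 on the log2 scale (adjusted p = 1.57e-08). In the reference gene order spp-3, spp-2, spp-6, spp-4 and spp-5 lie side by side on the X chromosome, 5 saposin-like genes in a row. Within that run, spp-4 fell in the mutant while the probe set of spp-2 and spp-3 was higher by 0.46 (log2), spp-6 stayed under the filter at 1.34 to 27.6, and the probe set of spp-5 did not pass the test.

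A fall of similar shape was seen in spp-23. It read 1451, 1284 and 1529 in N2, 568, 783, 684 and 677 in the mutant on control RNAi, and 1376, 1262.5 and 1549 on skn-1 RNAi. The mutant control arrays were the lowest, and the other groups overlapped. It fell by 1.05 on the log2 scale in the mutant (limma adjusted p = 1.06e-05) and rose by 1.03 with skn-1 RNAi (adjusted p = 2.01e-05). Over the 10 arrays its profile lay 0.19 from that of spp-1. The gene spp-27 was dim in N2 (11.7 to 36.1) and with skn-1 RNAi (15.4 to 31.4) and brighter in the mutant on control RNAi (92.8 to 156). Its rise was 1.88 on the log2 scale (adjusted p = 1.21e-05), and skn-1 RNAi changed it by -1.79 (adjusted p = 3.08e-05). It passed the filter on low signals only through the mutant control arrays, so it had to differ, and its adjusted p values are no support for a change.

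**Figure D3:**
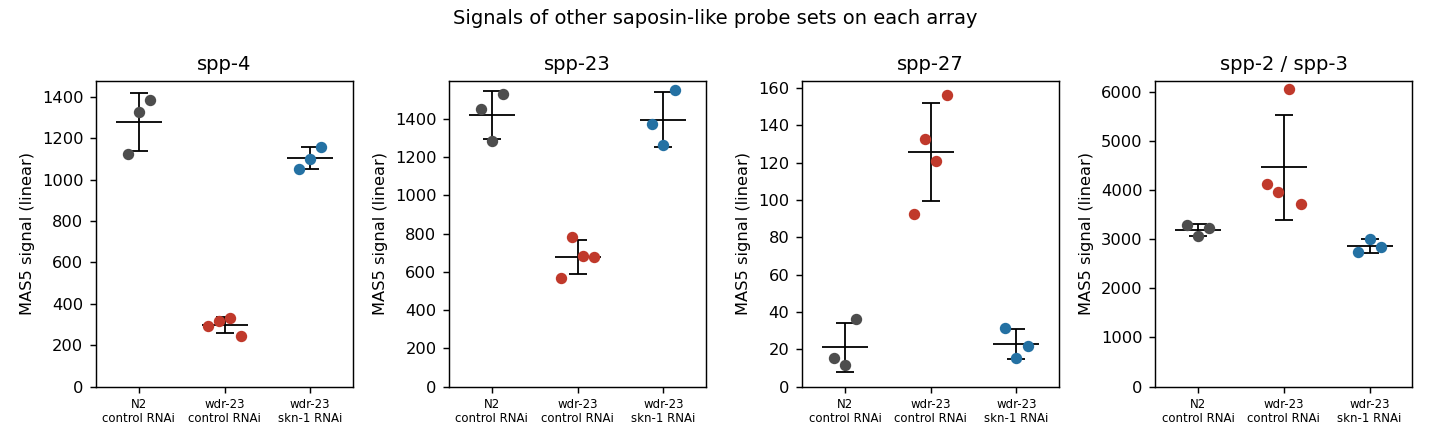
Linear MAS5 signal of spp-4, spp-23, spp-27 and the probe set annotated to spp-2 and spp-3 on each array, by group. Points are arrays, wide bars are group means and whiskers are 1 SD. The mutant control arrays are the lowest for spp-4 and spp-23 and the highest for spp-27.

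The smaller rises were chosen for naming after their values were seen. The gene spp-7 rose by 0.71 (log2, limma adjusted p = 0.00446), with 93.7 to 139.8 in N2 and 171 to 229.6 in the mutant. The gene spp-13 rose by 0.8 (adjusted p = 0.0284), a call lost without any of 5 single arrays, with no filter (adjusted p = 0.0655) and with median centring (0.6, adjusted p = 0.0576). The gene spp-10, which encodes a prosaposin-like protein with several saposin domains, rose by 0.39 on its brightest probe set (adjusted p = 0.011), a call lost without N2 replicate 1 (0.33) and with median centring (0.19). Its 3 probe sets disagreed in size. On 185955_at the mean signal was 1718 in N2 (SD 108, n = 3), 4321 in the mutant (SD 111, n = 4) and 2136 with skn-1 RNAi (SD 215, n = 3). There the rise was 1.32 on the log2 scale (adjusted p = 3.42e-08) and the fall with skn-1 RNAi -1.01 (adjusted p = 1.6e-06). On 173276_s_at the rise was 0.27 (adjusted p = 0.0379). With skn-1 RNAi the brightest probe set (-0.27, adjusted p = 0.0735) and 173276_s_at (-0.17, adjusted p = 0.203) did not pass the test.

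**Figure D4:**
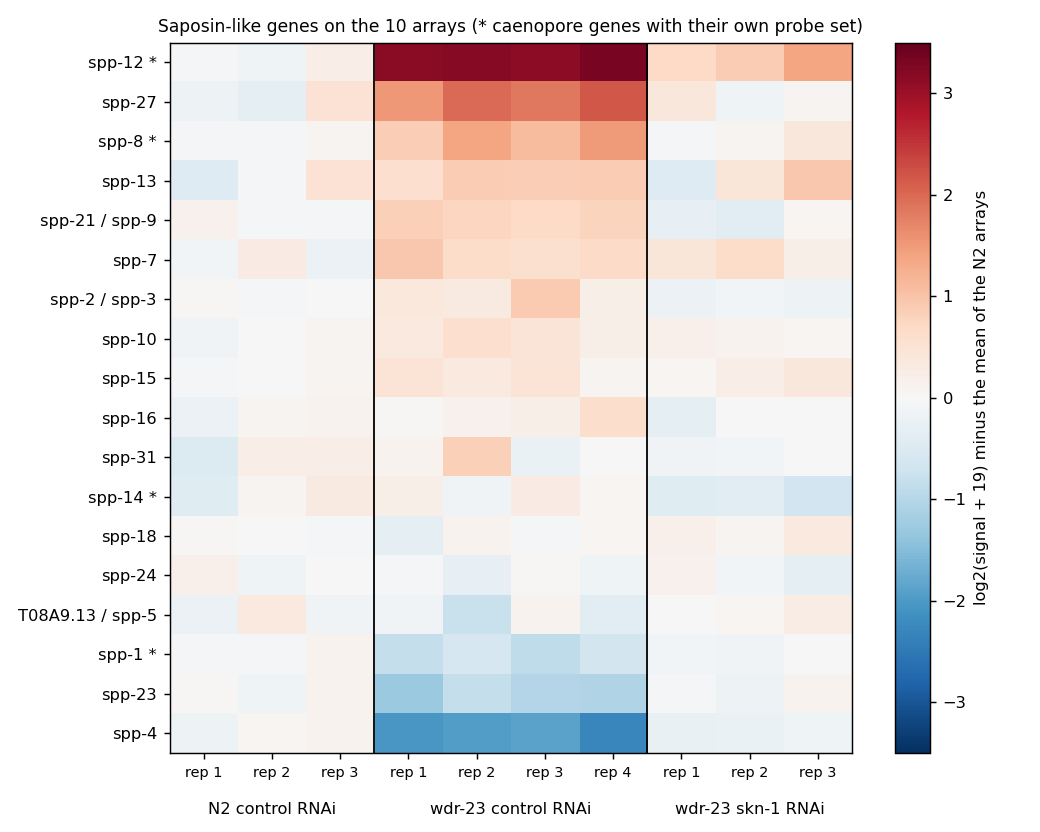
Log2 of signal + 19 minus the mean of the N2 arrays, in colour, for the tested saposin-like genes and the 3 shared probe sets (rows) on each array (columns, by group). Asterisks mark spp-12, spp-8, spp-1 and spp-14, and rows are ordered by the mean of the mutant control arrays, from spp-12 at the top to spp-4 at the bottom.

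Other antibacterial genes were counted for comparison. Over all 12061 tested genes, 18.9% rose and 10.2% fell in the mutant, and 9.94% rose and 13.1% fell with skn-1 RNAi. Counts near these shares do not set a list apart from the rest. Of 11 tested lysozymes, which cut bacterial cell walls, 2 rose in the mutant (lys-3 at 1.32 and lys-8 at 0.68, log2) and 5 fell (lys-6 at -3.35, ilys-5 at -2.14, lys-4, lys-1 and lys-5), with a median of -0.34. With skn-1 RNAi 6 lysozymes rose, led by lys-6 at 2.79, and 3 fell (lys-3 at -1.72, lys-8 and lys-2), with a median of 0.35. The medians kept their signs with quantile normalization and with median centring. The lys-3 signal passed the filter only through the mutant control arrays (mean 95.6, against 27.6 in N2 and 16.2 with skn-1 RNAi), and a gene that enters only through its high group had to differ. Of 18 other antimicrobial peptide genes, 5 rose in the mutant (cnc-3 at 0.997, cnc-2, abf-5, fip-2 and nlp-31) and 3 fell (nlp-26 at -1.19, fip-5 and nlp-27). Their median of 0.11 turned to -0.09 with median centring, which gave 4 higher and 5 lower. Over all 15783 tested probe sets that scaling gave 1671 higher and 4613 lower. The mean of cnc-2 in N2, 29.2, was under the filter. With skn-1 RNAi 3 of these rose (nlp-25 at 1.12, nlp-26 and nlp-27) and 2 fell (abf-5 at -0.96 and cnc-3). Between the mutant on skn-1 RNAi and N2, 1 of the 11 lysozymes was higher and 1 lower. Of the 18 peptide genes 1 was higher and 1 lower, where 4.12% of all tested genes were higher and 2.55% lower.

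Regulators known to act on antimicrobial genes were counted too. The shares over all tested genes were 18.9% higher and 10.2% lower in the mutant, and 9.94% and 13.1% with skn-1 RNAi. Of 21 tested, 9 rose in the mutant and 0 fell (1 at an unadjusted p under 0.05), led by the intestinal GATA factor gene elt-2 at 0.76 (log2), with a median of 0.32, but 3 rose and 3 fell with median centring. With skn-1 RNAi 6 fell and 0 rose (1 at an unadjusted p under 0.05), led by pqm-1 at -0.73, against 2 fallen and 2 risen with median centring. Over all 15783 tested probe sets, median centring gave 1671 higher and 4613 lower in the mutant, and 3463 and 1308 with skn-1 RNAi. The rises of elt-2, sma-3 and pqm-1 and the fall of pqm-1 held without any single array. Each of the other regulator calls in these comparisons was lost without some single array. Of 19 lysosomal and sphingolipid genes, 5 rose in the mutant (asah-1 at 2.74, asah-2, aagr-1, gana-1 and asm-2) and 2 fell (ctns-1 at -0.497 and cup-5). Both asah genes encode acid ceramidases, and ctns-1 was not called without N2 replicate 1 (-0.41). With skn-1 RNAi 5 fell (asah-1 at -2.61, asah-2, asm-2, lmp-1 and gana-1) and 0 rose (1 at an unadjusted p under 0.05). Median centring gave 4 higher and 6 lower in the mutant, and 1 higher and 5 lower with skn-1 RNAi. The medians were 0.08 in the mutant, or -0.12 with median centring, and -0.2 with skn-1 RNAi. Between the mutant on skn-1 RNAi and N2, 2 of these 19 were higher (aagr-1 at 1.2 and asah-2 at 0.82) and 1 lower (lmp-1 at -0.44). In that comparison 4.12% of all tested genes were higher and 2.55% lower. Of the 21 regulators, elt-2 alone was called there, at 0.54, and its change with skn-1 RNAi was not called (-0.23, limma adjusted p = 0.263). The calls of lmp-1 and elt-2 there were lost without some single arrays.

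These are whole animals, so fewer cells of a type and less RNA per cell cannot be told apart. Beside the marker counts, 18.9% of all tested genes rose and 10.2% fell in the mutant. With skn-1 RNAi 9.94% of all tested genes rose and 13.1% fell. Of 24 intestine markers, 4 rose in the mutant (pept-1 at 1.07, elt-2, pho-1 and vha-6) and 6 fell, led by cpr-1 at -3.26, and their summed signal was 69612 to 78240 on the mutant control arrays against 83332 to 91572 in N2 and 79071 to 89087 with skn-1 RNAi. The sum was lowest on the arrays where spp-1, spp-4 and spp-23 were lowest, and its part in their fall was not tested. Much of the lower sum lay in protease genes, with mean signals going from 8601 to 893 for cpr-1 and from 6608 to 2354 for cpr-4, which was named after its values were seen. Of the 24 markers 14 did not pass the test, and the list's median log2 change was 0.13 (-0.08 with median centring). Of 18 neuron markers, 5 rose in the mutant (aex-3 at 0.81, egl-21, egl-3, snt-1 and unc-13) and 0 fell, also at an unadjusted p under 0.05. Their summed signal was 8507 to 9688 on the mutant control arrays, 7050 to 7497 in N2 and 7095 to 7367 with skn-1 RNAi, and rgef-1 was at or under a signal of 19 on all arrays. Of 16 pharynx markers, 4 rose (phat-5 at 1.9, peb-1, phat-6 and pha-4) and phat-3 fell by 1.27, with summed signals of 10836 to 11529, 9433 to 10091 and 8074 to 9051 in the same order. Both summed levels were highest on the arrays where spp-12 and spp-8 were highest. With skn-1 RNAi, where spp-12 stayed above N2, the neuron sums overlapped those of N2 and the pharynx sums lay below them. Any part of these levels in the rise of spp-12 or spp-8 was not tested. With median centring 3 neuron markers rose and 0 fell in the mutant, and 3 pharynx markers rose and 1 fell. The median log2 change then went from 0.41 to 0.21 for neuron markers and from 0.25 to 0.04 for pharynx markers. Over all 15783 tested probe sets that scaling gave 1671 higher and 4613 lower. With skn-1 RNAi 10 pharynx markers fell, led by phat-5 at -1.11, and 5 neuron markers fell (egl-21 at -0.81, unc-13, egl-3, ida-1 and unc-64). Of the 24 intestine markers 9 fell and 6 rose with skn-1 RNAi, and of 16 hypodermis markers 8 fell and 1 rose. Of 20 germ line markers 0 fell and 9 rose, and of 20 body-wall muscle markers 1 fell and 0 rose.

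Of 16 hypodermis markers, 9 rose in the mutant, led by wrt-2 at 2.06, and lin-26 fell by 0.57. Over all tested genes 18.9% rose and 10.2% fell. With median centring 8 of the 16 markers rose and 4 fell, where 1671 of all 15783 tested probe sets rose and 4613 fell. Their summed signal overlapped between all groups (56527 to 72783 in N2, 60451 to 68527 in the mutant on control RNAi and 61472 to 72967 with skn-1 RNAi). Of 20 germ line markers, 6 fell in the mutant (16 with median centring) and 0 rose, also at an unadjusted p under 0.05, with summed signals of 50140 to 54309 against 59483 to 66031 in N2 and 63045 to 69708 with skn-1 RNAi. The part of this in the fall of spp-1, spp-4 and spp-23 was not tested either. The leading one, puf-5 at -0.57, was not called without N2 replicate 1 (-0.43). Of 20 body-wall muscle markers, 4 rose (unc-22 at 0.88, unc-97, hlh-1 and unc-89), with 0 lower also at an unadjusted p under 0.05, but 2 rose and 4 fell with median centring. Their median was -0.01, or 0.09 by quantile normalization and -0.21 by median centring, and their summed signal overlapped between groups (95203 to 103912 in N2, 95594 to 103394 in the mutant on control RNAi and 90308 to 97789 with skn-1 RNAi). Of the 4 muscle marker rises, only that of unc-22 held without any single array. Of the 70 calls in these lists between mutant and N2, 39 held without any single array and 31 did not. With skn-1 RNAi 46 of 74 held and 28 did not, among them the falls of lys-2, cnc-3, ida-1 and unc-64. Between the mutant on skn-1 RNAi and N2, 9 of 22 held and 13 did not. In that comparison 2 intestine markers were higher and 4 lower, and 1 pharynx marker was higher and 3 lower. Of the hypodermis markers 4 were higher and 0 lower, and of the muscle markers 0 and 1. For neuron and germ line markers both counts were 0. Over all tested genes 4.12% were higher and 2.55% lower in that comparison.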

How the data were processed

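RNA of 10 samples in 3 groups was labelled from 250 ng of total RNA and hybridised to Affymetrix arrays. The authors deposited intensity on a linear scale, made with MAS5 per the submitters' processing notes (version not given in the sources used here). The mean after trimming 2% at each end was 500.11 to 500.14 on every array. Gene names came from the platform annotation: 20766 probe sets named 1 gene, 887 several and 895 none, and 77 control probe sets were left out. For 17072 genes the symbol was compared with RefSeq by gene number, and 0 changed.

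Before log2, 19 was added to each signal (the rounded 20th percentile). A filter on mean log2 signal removed the dimmest 30% (6765 probe sets at 5.71 or under). The remaining 15783 entered a single two-sided limma fit of all 3 groups (limma 3.58.1, R 4.3.3, trended eBayes, 16.4 degrees of freedom). Benjamini-Hochberg adjustment ran over all 15783, and calls needed an adjusted p under 0.05. A fold is 2 raised to the fitted change, which understates the ratio where signals are dim. Means and SDs are of the signals themselves. Each list gene is read from its brightest probe set. No detection calls were used, and precision is limited by how many arrays there are.

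The genes, lists and tests were chosen with earlier results of these data known. Named were all listed genes, other saposin-like genes called with a log2 change of at least 1, wdr-23, skn-1, the called gene with the largest rise and fall of each list in the comparisons of mutant with N2 and of skn-1 RNAi with control RNAi, and the 2 nearest profiles of any caenopore gene whose group means span at least 1. Genes named because 5 or fewer of a list were called fall outside that rule and were chosen after their values were seen. Figures used python 3.11.15, numpy 2.4.6, pandas 2.3.3 and matplotlib 3.10.9. Sequences of the genes were not used here. Of their positions, only the chromosome and the reference gene order were used.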

Additional observations from a re-analysis of the deposited data

How the results depend on the processing

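Each comparison was refitted with a pseudocount of 1 or 50, no filter or the lowest 50% left out, quantile normalization, median centring, no intensity trend, a replicate block, only the groups compared, no suffixed probe sets, and without each array in turn. Of 243 refitted values for spp-1, spp-8, spp-12 and spp-14, 236 kept direction and side of the threshold, 1 lost its call, 2 gained one and 4 changed sign. Of those 4, spp-14 between mutant and N2 was at -0.087 with median centring and ranged from -0.1 to 0.273 without single arrays (lowest without N2 replicate 1), and spp-1 on its dim probe set was at 0.23 between mutant and N2 and -0.23 with skn-1 RNAi, which had no filter. The number of the 4 genes called between the mutant on skn-1 RNAi and N2 was 2 in place of 1 with median centring, and 1 to 2 without single arrays. Between the mutant on skn-1 RNAi and N2, values near 0 changed sign without single arrays, ranging from -0.003 to 0.277 for the probe set of spp-5 and T08A9.13, from -0.07 to 0.351 for spp-27, and from -0.103 to 0.042 for spp-23. The cause was not tested.

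No clear pairing of arrays by replicate number was seen across groups, which does not exclude shared batches. Residuals of same-number arrays correlated at -0.157 to 0.176, over 0.1 in 3 of 9 pairs, other pairs at -0.175 to 0.174, and 4 of 10 arrays correlated best with their own number. With the replicate block, 3, 4 and 1 of the 4 genes were called, as without it. All calls numbered 4344, 3558 and 1001 without the block and 3815, 2918 and 1016 with it. They numbered 2724, 2101 and 599 without suffixed probe sets. Without N2 replicate 1 there were 2848 for mutant against N2 and 591 for the mutant on skn-1 RNAi against N2, which had 590 without wdr-23 skn-1 RNAi replicate 2 and 521 without replicate 3. Without wdr-23 skn-1 RNAi replicate 1 there were 2216 for skn-1 RNAi against control RNAi. Signals near the pseudocount, as in spp-27, give folds that understate the ratio.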
